A study of Mus musculus with 20 samples.

Results

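The comparison set bulk pancreatic tumours grown in IL33-/- hosts against those grown in wild-type (WT) hosts, 10 of the 20 libraries of the series, chosen by their sample titles. KPC cells, murine pancreatic cancer cells kept in culture, had been put into the pancreas of untreated C57BL/6 mice, and the tumours were taken at 2 weeks. There were 5 bulk tumour libraries from WT hosts (WT 1 to 5) and 5 labelled IL33KO (1 to 5); the other 10 libraries hold CD45+ leukocytes enriched from such tumours. The labels place the deletion in the host; they do not describe the deleted part of Il33 or say that the injected cells lack the gene. The labels name 5 hosts per genotype without tying libraries to animals, so the p-values measure only the spread among them, and part of it may be technical. Of 46983 genes in the count table, 17258 passed the expression filter and were tested. Values are counts scaled to library size (CPM), in the order of replicates 1 to 5 where 5 are listed, with gene coordinates on mm10, and log2 fold changes are those of edgeR, labelled IL33KO minus WT.

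IL-33 is a cytokine of the IL-1 family that barrier and stromal cells keep in the nucleus and release when damaged. It binds the receptor ST2, encoded by Il1rl1, with the shared chain encoded by Il1rap, and signals through MyD88 and IRAK kinases in mast cells, type 2 lymphocytes, regulatory T cells and some myeloid cells. A tumour piece holds cancer cells together with fibroblasts, vessels, leukocytes and any neighbouring pancreas, so a gene's CPM follows both the makeup of the piece and the RNA per cell. In bulk tissue fewer cells of a type and less RNA per cell cannot be told apart.

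The labelled tissue was checked by its markers, and epithelial genes were abundant in all 10 libraries. Krt8 was at 1982 to 2887 CPM in WT and 1542 to 2863 CPM in those labelled IL33KO, Krt18 at 1809 to 2083 CPM in WT and 1636 to 2281 CPM in those labelled IL33KO, Krt19 at 1325 to 2226 CPM in WT and 1452 to 1790.3 CPM in those labelled IL33KO and Epcam at 367 to 569.8 CPM in WT and 218 to 516 CPM in those labelled IL33KO. Gene counts came to 51.3 to 81.0 M per library, where 3 counts correspond to 0.0374 to 0.0577 CPM. The WT libraries were divided. WT 1, 2 and 4 were low in leukocyte genes. Their pan-leukocyte score, the mean log2 CPM of 10 genes, was 5.98 to 6.00, while WT 3 and 5 stood at 6.79 and 7.10 and the libraries labelled IL33KO at 6.27 to 7.24. Genes of tissue beside the tumour were high in some libraries of both groups. Cpa1, an acinar digestive enzyme, was at 1.31, 1.19, 1.79, 1.09 and 990.1 CPM in WT and 1.76, 0.687, 254, 0.514 and 19.5 CPM in those labelled IL33KO. Ins2, insulin of islets, was at 0.307, 0.119, 85.7, 0.325 and 195 and 0.0499, 0.491, 327, 4.65 and 1.95 CPM, and Ckm, the creatine kinase of skeletal muscle, at 0.0307, 0.0339, 0.0759, 0.114 and 139.6 and 319.9, 0.147, 0.192, 0.244 and 57.3 CPM.

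**Figure D1:**
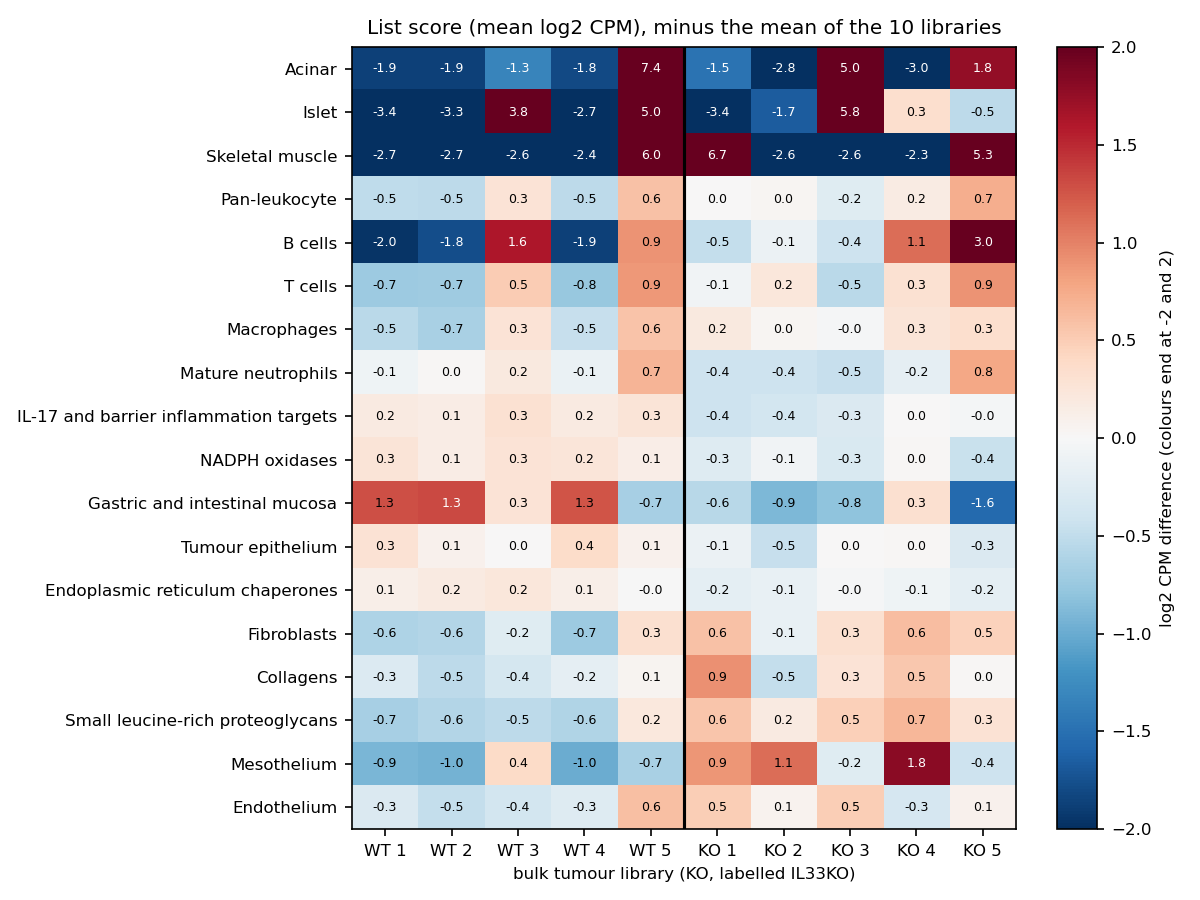
Mean log2 CPM of the members of 18 gene lists (rows) in each bulk tumour library (columns), minus the mean of the 10 libraries, with the value printed in each cell. Acinar, islet and skeletal muscle genes were high in single libraries of both groups, and B cell genes were low in WT 1, 2 and 4. Scores of IL-17 and barrier targets, NADPH oxidases and endoplasmic reticulum chaperones were lower in all 5 libraries labelled IL33KO than in any WT library. Those lists were made with values of these data known.

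The question was which genes of the whole tumour differ when the host lacks Il33. By edgeR's quasi-likelihood test with Benjamini-Hochberg adjustment over all genes, 0 genes were called higher (0%) and 0 lower (0%) at an adjusted p under 0.05, and the smallest adjusted p was 0.724. At an unadjusted p under 0.05 there were 514 genes higher (2.98%) and 584 lower (3.38%), 1098 in all where 863 are expected on average if nothing differs. With 1 library left out at a time that count ran from 497 without WT 1 to 4349 without WT 5, so no excess is read from it. DESeq2 called 20 higher (0.116%) and 30 lower (0.174%), while 1919 were higher (11.1%) and 1452 lower (8.41%) by limma voom with weights for sample quality, which gave WT 5 a weight of 0.218 and WT 1 one of 6.09. The 5 libraries of each group did not overlap for 57 genes that were higher (0.33%) and 58 that were lower (0.336%). WT 3 and 5 were left out together for their high pan-leukocyte scores, a choice that itself favours higher leukocyte genes in libraries labelled IL33KO. Without WT 5 edgeR called 12 higher and 7 lower, and without WT 3 and 5 it called 1012 higher and 1162 lower. Without WT 5 and replicates 1, 3 and 5 labelled IL33KO, the libraries in which acinar or muscle genes were high, it called 0, with 1664 genes at an unadjusted p under 0.05. Every gene named below thus had an edgeR adjusted p of 0.724 or more, and calls by DESeq2 or voom are named as theirs. The 15 genes of smallest p in each direction were picked for that p in these libraries, so the counts over them are a description with no separate support.

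The genes with the smallest p on the lower side include receptors of neutrophils and proteins of the epithelial surface. For 4 of them the 250 bases of genomic sequence before the RefSeq transcription start are shown, because receptor genes of one cell type (Cxcr2, Csf3r) and a gene pair that shares one upstream region (Duox2, Duoxa2) lay lower together. The sequences are from RefSeq on GRCm38.p6, 5′ to 3′ on the strand of the gene; capitals mark a match to one of 4 motifs searched on both strands, TTCNNNGAA (STAT-like), GGANNTTCC (NF-kB-like), TTGCNNAA (C/EBP-like) and TGANTCA (AP-1-like). The RefSeq start can differ from the gene boundary given with the counts. By those boundaries most of the Duox2 window, part of the Csf3r window and the last bases of the Cxcr2 window lie within the gene.
Cxcr2, chr1:74153744-74153993, + strand: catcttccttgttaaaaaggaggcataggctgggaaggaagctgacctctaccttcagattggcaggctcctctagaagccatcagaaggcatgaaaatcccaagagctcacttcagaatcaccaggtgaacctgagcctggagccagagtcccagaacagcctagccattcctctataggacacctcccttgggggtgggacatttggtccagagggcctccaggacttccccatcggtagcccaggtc
Csf3r, chr4:126024409-126024658, + strand: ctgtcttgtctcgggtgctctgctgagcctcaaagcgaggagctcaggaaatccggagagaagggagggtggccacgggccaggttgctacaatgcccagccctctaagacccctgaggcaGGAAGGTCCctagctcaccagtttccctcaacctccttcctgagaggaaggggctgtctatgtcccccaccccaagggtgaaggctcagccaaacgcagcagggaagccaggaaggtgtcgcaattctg
Duox2, chr2:122298228-122298477, − strand: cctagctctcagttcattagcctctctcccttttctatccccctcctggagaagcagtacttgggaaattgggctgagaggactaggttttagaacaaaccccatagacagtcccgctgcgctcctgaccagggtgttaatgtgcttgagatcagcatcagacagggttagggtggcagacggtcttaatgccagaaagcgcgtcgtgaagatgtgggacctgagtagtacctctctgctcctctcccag
Duoxa2, chr2:122298650-122298899, + strand: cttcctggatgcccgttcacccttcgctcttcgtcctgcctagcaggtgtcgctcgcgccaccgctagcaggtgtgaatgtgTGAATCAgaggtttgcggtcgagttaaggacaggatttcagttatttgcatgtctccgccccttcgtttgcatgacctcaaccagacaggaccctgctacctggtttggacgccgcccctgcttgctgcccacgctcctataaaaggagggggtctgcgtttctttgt

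The NF-kB-like motif occurred 1 time in the Csf3r window, read on the opposite strand, from base −129 before the start, and the AP-1-like motif 1 time in the Duoxa2 window, from base −168; Cxcr2 and Duox2 held none of the 4. Among all 32851 RefSeq promoter windows of this length 7.02% held the STAT-like motif, 3.59% the NF-kB-like one, 9.56% the C/EBP-like one and 6.75% the AP-1-like one. The windows of Sectm1b, Pigr and Upk3b were searched too and are not shown. Sectm1b and Pigr held none of the 4, and Upk3b, a gene of higher mean, held the NF-kB-like motif 1 time. A match is a string of letters and not a site shown to be bound. The Duox2 and Duoxa2 starts lie 673 bases apart on opposite strands and point away from each other.

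Reads of the targeted gene were counted in both groups. Il33 (ENSMUSG00000024810.16, chromosome 19, 29925114 to 29960718) had reads in every library, at 66.7, 80.2, 63.2, 65.0 and 67.3 CPM in WT and at 55.5, 49.8, 69.3, 43.0 and 54.4 CPM in those labelled IL33KO. Replicate 3 labelled IL33KO, at 69.3 CPM, lay within the WT range of 63.2 to 80.2, and the other 4 lay below it. The edgeR log2 difference was −0.33 (SE 0.13), and the exact permutation test on log2 CPM, two-sided, gave p = 0.0397 (smallest possible 0.00794; adjusted p = 0.238 over 6 single values tested). Without replicate 3 labelled IL33KO that exact test gave an adjusted p of 0.0476 (range over alternatives 0.0476 to 0.429). That replicate alone lay within the WT range, so leaving it out separated the groups and gave the smallest p possible. Counts per gene do not show which exons were read, so these values do not check the genotype labels.

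Il1rl1, the ST2 gene, was at 0.706, 0.679, 11.3, 0.812 and 2.82 CPM in WT and at 1.90, 2.57, 1.96, 2.88 and 3.66 CPM in those labelled IL33KO. WT 3 was the highest of all 10, WT 1, 2 and 4 were the lowest, and the groups overlapped. The edgeR log2 difference of −0.33 (SE 0.75) turned positive without WT 3 (+1.04), with voom (+1.52, adjusted p = 0.0396, range over the settings run 0.0191 to 0.999) and in the mean of log2 CPM (+0.58, exact permutation p = 0.556). Voom gave WT 3 a weight of 0.664 and WT 1 one of 6.09, so it too discounted the highest library. The other 6 members of the list are signalling partners: Il1rap (−0.02), the adaptors Myd88 (+0.06) and Tirap (−0.30), the kinases Irak1 (−0.13) and Irak4 (−0.17), and the ubiquitin ligase Traf6 (−0.13). None of these 6 had an unadjusted p under 0.05. Over the 8 members the median was −0.15, against +0.01 over all genes tested; it was −0.27 without WT 3 and 5 and −0.07 when the pan-leukocyte score was a covariate. Transcripts of the related alarmins Tslp and Il25, and the type 2 cytokines Il4, Il5 and Il9, were below the filter, with at most 17, 3, 19, 14 and 2 counts in any library.

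Receptor genes of neutrophils lay lower in the libraries labelled IL33KO, and DESeq2 called Cxcr2 and Csf3r; the calprotectin genes S100a8 and S100a9 and the granule genes did not pass any of the 3 tests in the lower direction except 1 granule gene in voom. Neutrophils leave blood for tissue by following CXC chemokines through CXCR2, and G-CSF, acting on the receptor encoded by Csf3r, drives their output from marrow. Cxcr2 (ENSMUSG00000026180.8, chromosome 1, 74153989 to 74161246) was at 22.2, 25.1, 17.2, 20.6 and 19.5 CPM in WT and at 9.94, 12.5, 11.6, 8.42 and 12.2 CPM in those labelled IL33KO. All 5 libraries labelled IL33KO lay below all 5 WT libraries. The log2 difference was −0.94 (SE 0.14), with an adjusted p of 8.27e-06 in DESeq2 and 0.00392 in voom (range over the settings run 8.27e-06 to 0.988), and it stayed between −1.09 and −0.86 over the settings run.

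Csf3r (ENSMUSG00000028859.14, chromosome 4, 126024550 to 126044440) was at 53.02, 52.7, 49.4, 52.4 and 60.6 CPM in WT and at 31.5, 45.1, 36.9, 28.6 and 35.4 CPM in those labelled IL33KO. Again the groups did not overlap, and WT 5, rich in leukocytes, was the highest. The log2 difference was −0.60 (SE 0.12), with an adjusted p of 0.00721 in DESeq2 and 0.0107 in voom (range over the settings run 0.00721 to 0.988). The chemokine receptor gene Cxcr1 was under 1 CPM in every library (0.243 to 0.565 CPM in WT and 0.0899 to 0.231 CPM in those labelled IL33KO, log2 −0.94), and the skin protease gene Asprv1 lay at 2.71 to 3.53 CPM in WT and 0.846 to 2.63 CPM in those labelled IL33KO (log2 −0.76); for both the groups were separate. Il1r2, the decoy receptor for IL-1, was at 26.1, 30.6, 20.7, 23.3 and 28.8 CPM in WT and at 15.4, 20.2, 22.1, 13.1 and 23.7 CPM in those labelled IL33KO, with overlap (log2 −0.46), and Il1f9, which encodes IL-36 gamma, had a log2 difference of −0.66.

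The calprotectin genes S100a8 and S100a9 were spread otherwise. S100a9 was at 87.0, 115, 112, 80.3 and 135 CPM in WT and at 46.6, 52.9, 49.1, 87.4 and 307 CPM in those labelled IL33KO. Replicates 1 to 3 labelled IL33KO were below all WT libraries, and replicate 5 was above every other library. Its log2 difference of +0.04 (SE 0.50) turned to −0.84 without that replicate. S100a8 (+0.21), the surface marker gene Ly6g (+0.21), Wfdc21 (+0.67) and the resistin-like gene Retnlg (+0.58) were likewise highest in replicate 5 labelled IL33KO, and without it their differences were −0.70, −0.85, −0.40 and −0.06. Of the 20 mature neutrophil genes 11 were negative and 9 positive (median −0.05), 6 were lower and 0 higher at an unadjusted p under 0.05, DESeq2 called 2 lower, and 4 were lower with no overlap. Over all genes tested 3.38% were lower at that p, DESeq2 called 0.174% lower, and 0.336% were lower with no overlap. The median of the 20 genes was −0.49 when the pan-leukocyte score was a covariate and +0.20 without WT 3 and 5. The 12 granule genes of immature neutrophils had a median of +0.91, with 0 at an unadjusted p under 0.05 in either direction. That median was +1.93 without WT 3 and 5, −0.23 without replicate 5 labelled IL33KO and −0.07 when the pan-leukocyte score was a covariate.

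Among the ligands of CXCR2 the most abundant, Cxcl5 (ENSMUSG00000029371.7, chromosome 5, 90759360 to 90761624), was at 185, 187, 163, 181 and 204 CPM in WT and at 117, 135, 141, 109.8 and 108 CPM in those labelled IL33KO. Every library labelled IL33KO was below every WT library, and the log2 difference was −0.59 (SE 0.10), with an adjusted p of 0.000319 in DESeq2 and 0.00573 in voom (range over the settings run 0.000319 to 0.988). Cxcl1 ran the other way, at 0.415, 0.611, 1.91, 0.585 and 0.946 CPM in WT and at 1.57, 1.80, 0.826, 10.6 and 0.823 CPM in those labelled IL33KO. Replicate 4 labelled IL33KO held most of that log2 difference of +1.81 (SE 0.76), and the remaining libraries overlapped. Cxcl3 was at 15.05 to 35.9 CPM in WT and 10.8 to 19.6 CPM in those labelled IL33KO (log2 −0.51), Cxcl15 at 1.299 to 2.41 CPM in WT and 0.748 to 1.67 CPM in those labelled IL33KO (−0.59), Cxcl2 at 4.38 to 16.6 CPM in WT and 4.45 to 10.4 CPM in those labelled IL33KO (−0.21) and Ppbp at 1.73 to 5.97 CPM in WT and 1.34 to 4.84 CPM in those labelled IL33KO (−0.09), each with overlap. Over the 6 ligands 5 were negative (median −0.36), and 2 were lower and 1 higher at an unadjusted p under 0.05. Over all genes tested 3.38% were lower and 2.98% higher at that p. The ligand median was −0.01 without WT 3 and 5 and +0.04 without WT 5 alone.

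**Figure D2:**
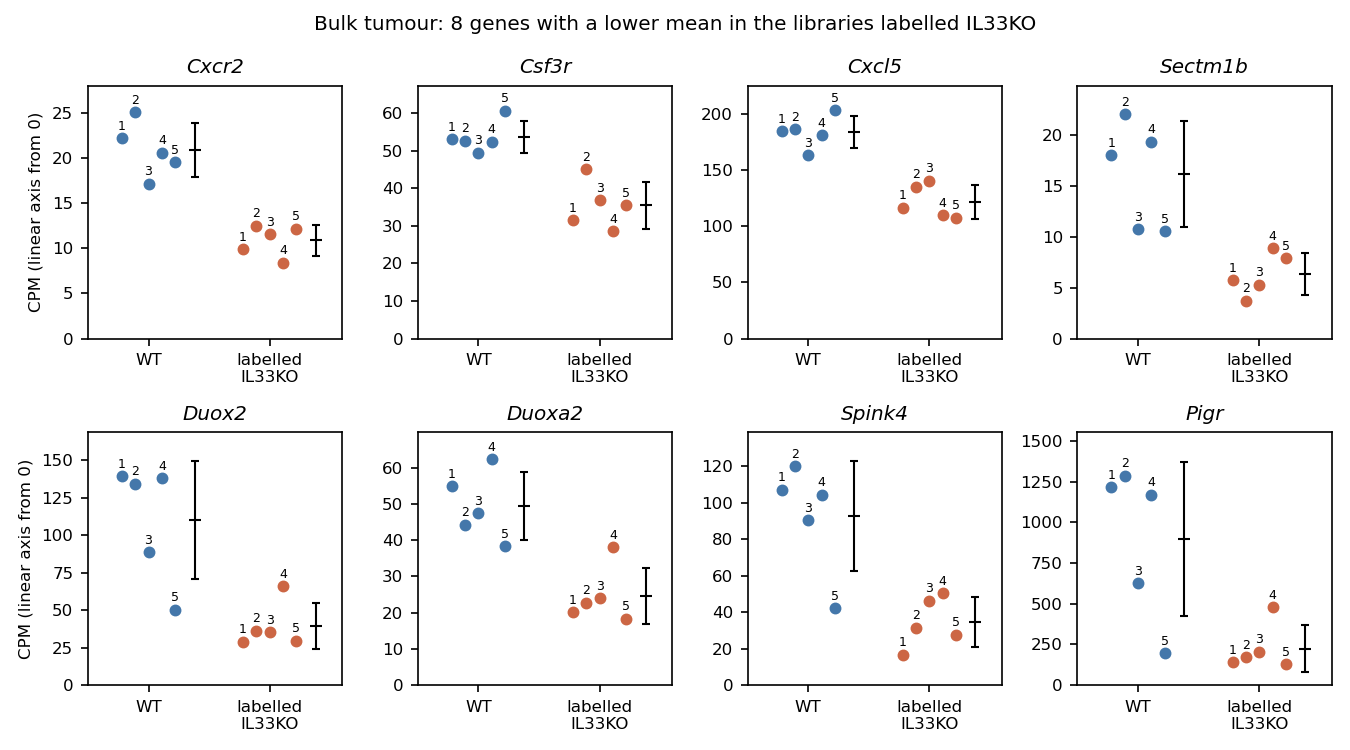
CPM (vertical axis, linear from 0) of 8 genes in each bulk tumour library, with replicate numbers beside the points and the mean with its SD as a bar at the right of each group (n = 5). Cxcr2, Csf3r, Cxcl5, Sectm1b and Duoxa2 did not overlap between the groups, while WT 5 fell into the range of the libraries labelled IL33KO for Duox2, Spink4 and Pigr.

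Genes that IL-17 and barrier inflammation induce in epithelium lay lower in part. DUOX2 is an oxidase in the apical membrane of mucosal epithelium that makes hydrogen peroxide against microbes, and DUOXA2 is the maturation factor it needs to leave the endoplasmic reticulum. Duox2 (ENSMUSG00000068452.7, chromosome 2, 122279247 to 122298449) was at 139.7, 134, 88.6, 138 and 50.4 CPM in WT and at 28.9, 36.4, 35.5, 66.0 and 29.6 CPM in those labelled IL33KO. WT 1, 2 and 4 were the highest, and WT 5, at 50.4 CPM, was below replicate 4 labelled IL33KO. The log2 difference was −1.49 (SE 0.31), with an adjusted p of 0.00541 in DESeq2 and 0.00664 in voom (range over the settings run 0.00541 to 0.988).

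Duoxa2 (ENSMUSG00000027225.7, chromosome 2, 122298900 to 122302885), whose upstream region is shown above beside that of Duox2, was at 54.9, 44.3, 47.6, 62.3 and 38.5 CPM in WT and at 20.1, 22.7, 24.0, 38.1 and 18.4 CPM in those labelled IL33KO. The groups were separated only narrowly, WT 5 being at 38.5 CPM and replicate 4 labelled IL33KO at 38.1. The log2 difference was −1.01 (SE 0.20), with an adjusted p of 0.00692 in DESeq2 and 0.00918 in voom (range over the settings run 0.00692 to 0.988). In both genes of the pair replicate 4 was the highest of the libraries labelled IL33KO and WT 5 the lowest of WT. Duox1, the other dual oxidase, was under 1 CPM in all libraries (log2 −0.93).

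Sectm1b, which encodes a secreted and transmembrane protein, was at 18.0, 22.1, 10.7, 19.3 and 10.6 CPM in WT and at 5.76, 3.71, 5.29, 8.89 and 7.88 CPM in those labelled IL33KO. The groups were separate, and WT 3 and 5 were the lowest of WT. The log2 difference was −1.35 (SE 0.28), with an adjusted p of 0.00541 in DESeq2 (range over the settings run 0.00541 to 0.988). Pigr, the receptor that carries IgA and IgM through epithelium, was at 1216, 1286, 626, 1169.9 and 194 CPM in WT and at 139, 173, 206, 477 and 126 CPM in those labelled IL33KO. WT 1 to 4 were above every library labelled IL33KO, and WT 5 lay among the libraries labelled IL33KO (log2 −2.003 (SE 0.52), DESeq2 adjusted p = 0.0161, range over the settings run 0.00869 to 0.999). Il1f6, the IL-36 alpha gene, was low in all, at 0.522, 0.390, 0.197, 0.276 and 0.244 CPM in WT and at 0.0374, 0.0491, 0.0961, 0.0514 and 0.113 CPM in those labelled IL33KO, with no overlap (log2 −2.23 (SE 0.40), DESeq2 adjusted p = 0.0189, range 0.00664 to 0.988). For Il1f6 replicates 1 and 2 labelled IL33KO stood at the level of 3 counts, where depth limits the value. Ccl20, the ligand of CCR6, was at 17.2, 17.8, 17.6, 14.9 and 13.4 CPM in WT and at 7.62, 14.4, 6.53, 10.3 and 7.64 CPM in those labelled IL33KO. Only replicate 2 labelled IL33KO reached the WT range (log2 −0.80 (SE 0.21)).

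The antimicrobial genes Lcn2 and Saa3 of the same list overlapped between groups. Lcn2, the siderophore-binding lipocalin, was at 129, 123, 199, 133 and 353 CPM in WT and at 40.6, 76.0, 280.2, 83.4 and 349 CPM in those labelled IL33KO, with the highest values in WT 5 and replicate 5 labelled IL33KO (log2 −0.18). Saa3, an acute phase protein, was at 29.1, 31.9, 417, 26.6 and 139 CPM in WT and at 225, 166, 74.6, 173 and 110.4 CPM in those labelled IL33KO. WT 1, 2 and 4 were below every library labelled IL33KO and WT 3 was above all of them. Its log2 difference of +0.22 (SE 0.74) was +2.13 with voom (adjusted p = 0.0189) and +2.33 with edgeR without WT 3 and 5 (adjusted p = 0.0166, range over the settings run 0.0166 to 0.999). WT 3 and 5 were the highest of WT for Saa3, and voom gave them weights of 0.664 and 0.218 against 6.09 for WT 1. Both settings thus drop or discount the high WT values, and their p-values are no separate support. Of the 23 members tested, out of 25 listed, 16 were negative (median −0.18), 9 were lower and 1 higher at an unadjusted p under 0.05, DESeq2 called 6 lower, voom called 9 lower and 2 higher, and 5 were lower with no overlap. Over all genes tested 3.38% were lower and 2.98% higher at that p, and DESeq2 called 0.174% lower. Voom called 8.41% lower and 11.1% higher, and 0.336% were lower with no overlap. The list median was −0.49 with voom, −0.39 when the pan-leukocyte score was a covariate, −0.55 without replicate 5 labelled IL33KO and −0.45 without replicate 3. The list score, its members' mean log2 CPM, was 4.14 to 4.29 in WT and 3.59 to 4.01 in those labelled IL33KO. The list was made with Cxcl5, Sectm1b and Duoxa2 known to be low in these libraries, so its direction is no independent evidence. Transcripts of the cytokines Il17a and Il17f were almost absent, with at most 1 and 4 counts in a library, and the receptor chain gene Il17ra had a log2 difference of −0.06.

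Another epithelial oxidase complex lay lower beside the DUOX pair. NOX1 makes superoxide with the organizer NOXO1 and the activator NOXA1. Noxa1 was at 8.43, 7.74, 6.12, 8.66 and 8.19 CPM in WT and at 3.59, 5.05, 5.30, 5.69 and 3.94 CPM in those labelled IL33KO. The groups did not overlap (log2 −0.73 (SE 0.17), DESeq2 adjusted p = 0.014, range over the settings run 0.0103 to 0.988). Nox1 itself was at 8.12, 10.7, 3.63, 8.30 and 1.13 CPM in WT and at 2.06, 2.47, 0.615, 1.99 and 0.404 CPM in those labelled IL33KO, with WT 3 and 5 far below the other WT libraries (log2 −2.08 (SE 0.64)). Noxo1 was at 25.8 to 53.8 CPM in WT and 15.8 to 34.3 CPM in those labelled IL33KO (log2 −0.77). Nox4, an oxidase of fibroblasts and vessels, was higher in every library labelled IL33KO, at 0.891, 0.509, 0.896, 0.666 and 1.11 CPM in WT and at 1.76, 1.39, 1.46, 1.27 and 1.13 CPM in those labelled IL33KO (log2 +0.78 (SE 0.25)). Cybb, the catalytic subunit in phagocytes, was at 102 to 147 CPM in WT and 77.6 to 162 CPM in those labelled IL33KO (log2 +0.13). In this list of 14, added after the values were seen, 13 were tested, 7 of them negative and 6 positive (median −0.49, −0.18 without WT 3 and 5). At an unadjusted p under 0.05 stood 6 lower and 1 higher, and DESeq2 called 3 lower. Over all genes tested these shares were 3.38%, 2.98% and 0.174%.

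The same division ran through genes of gastric and intestinal mucosa, which cells of pancreatic carcinoma and its precursors are known to express. Spink4, a protease inhibitor of goblet cells, was at 107, 119.9, 90.3, 104 and 42.3 CPM in WT and at 16.7, 31.5, 46.3, 50.5 and 27.6 CPM in those labelled IL33KO. WT 1 to 4 were above every library labelled IL33KO, and WT 5 was within their range (log2 −1.43 (SE 0.33), DESeq2 adjusted p = 0.0126, range over the settings run 0.00687 to 0.988). Gkn3, a gastrokine of stomach mucosa, was at 169, 174, 37.9, 165 and 21.5 CPM in WT and at 25.9, 20.3, 18.3, 29.4 and 7.05 CPM in those labelled IL33KO. WT 1, 2 and 4 stood far above the rest, and WT 5 overlapped the libraries labelled IL33KO (log2 −2.49 (SE 0.60)). The transmembrane mucin gene Muc13 showed that order too, at 158, 177, 59.0, 146 and 14.6 CPM in WT and at 27.9, 18.9, 8.59, 33.9 and 9.01 CPM in those labelled IL33KO (log2 −2.49 (SE 0.63)).

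All 29 tested genes of a mucosal list of 30 were negative (median −1.17), 16 at an unadjusted p under 0.05; DESeq2 called 3 lower (Gkn3, Pigr and the antimicrobial lectin gene Reg3g) and 0 were lower with no overlap. Over all genes tested 3.38% were lower at that p, DESeq2 called 0.174% lower, and 0.336% were lower with no overlap. This mucosal list was drawn up after the values were seen, and its count of signs is a description. Its lowest member was Gkn2 (3.86 to 275 CPM in WT and 0.888 to 53.6 CPM in those labelled IL33KO, log2 −3.29), and it also held the trefoil factor gene Tff2 (−1.15), the goblet cell gene Clca1 (−2.09) and the mucin gene Muc1 (−0.67). In the lists of tumour and duct epithelium the transcription factor genes Elf3 and Hnf4a and the chloride channel gene Cftr had −0.46, −0.53 and −0.93. The mucosal score was 5.26 to 7.25 in WT and 4.37 to 6.24 in those labelled IL33KO; without WT 3 and 5 the median difference was −1.59, and −0.64 when the pan-leukocyte score was a covariate. The log2 differences of the general epithelial keratins Krt8, Krt18 and Krt19 were −0.08, +0.01 and −0.15, and that of Epcam was −0.34. The sign of Krt18 turned with several settings. Leukocyte content and mucosal score lay opposite each other in WT, with WT 5 and 3 highest in the first and lowest in the second; its part in the result was not tested beyond that covariate.

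The remaining genes of smallest p on the lower side are also known from gut, liver or secretory epithelium. C4bp, the C4b-binding protein of complement, was at 53.8, 65.7, 26.4, 50.6 and 5.08 CPM in WT and at 7.28, 9.96, 4.65, 10.3 and 4.31 CPM in those labelled IL33KO. Prap1, a proline-rich protein of gut epithelium, was at 155, 150.2, 87.7, 155 and 28.4 CPM in WT and at 32.8, 23.5, 21.2, 50.2 and 23.5 CPM in those labelled IL33KO. Both were lowest of WT in WT 5, which entered the range of the libraries labelled IL33KO (log2 −2.46 (SE 0.56) and −1.93 (SE 0.43)). Vipr1, a receptor for vasoactive intestinal peptide, lay at 1.83 to 12.1 CPM in WT and 1.42 to 2.77 CPM in those labelled IL33KO (log2 −1.95), the alcohol dehydrogenase gene Adh1 at 5.57 to 19.4 CPM in WT and 2.23 to 6.99 CPM in those labelled IL33KO (−1.78) and Nlrp6, an inflammasome sensor of gut epithelium, at 5.46 to 25.7 CPM in WT and 3.98 to 9.14 CPM in those labelled IL33KO (−1.58). Ugt2b5, a glucuronosyltransferase, was at 0.580 to 3.31 CPM in WT and 0.387 to 0.801 CPM in those labelled IL33KO (log2 −1.91). The phospholipase gene Abhd3 was at 0.850 to 2.53 CPM in WT and 0.392 to 0.798 CPM in those labelled IL33KO, without overlap (log2 −1.62). DESeq2 and voom called all 15 genes of smallest p on this side lower, and 7 of the 15 did not overlap between groups. Over all genes tested DESeq2 called 0.174% lower, voom 8.41%, and 0.336% were lower with no overlap. The 15 were picked for small p in these same libraries, so high counts among them follow from the choice. Without WT 5 edgeR called Duox2, Prap1, Ugt2b5, C4bp, Vipr1 and Nlrp6 lower.

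Chaperones of the endoplasmic reticulum lay slightly lower. Hyou1, a chaperone for secreted proteins, was at 293, 279, 294, 293 and 216 CPM in WT and at 206, 207, 214, 218 and 186 CPM in those labelled IL33KO. WT 5 and the libraries labelled IL33KO shared one range, and WT 1 to 4 were above it (log2 −0.41 (SE 0.10), voom adjusted p = 0.00608, range over the settings run 0.00608 to 0.988). Hspa5, the BiP chaperone, had log2 −0.49, Herpud1, of protein degradation at that membrane, −0.58, and Xbp1, the transcription factor of secretory load, −0.50. In this list of 21, added after the values were seen, 19 were negative (median −0.27), 9 were lower at an unadjusted p under 0.05, and DESeq2 called 0. Over all genes tested 3.38% were lower at that p. The list score was 7.18 to 7.41 in WT and 6.99 to 7.16 in those labelled IL33KO. Of 58 list scores, 3 were lower in all libraries labelled IL33KO than in all WT ones and 0 were higher in that way. Those lower were IL-17 and barrier targets, NADPH oxidases and endoplasmic reticulum chaperones. The first list was made with low members known and the others after the values were seen, so this count is no independent evidence.

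**Figure D3:**
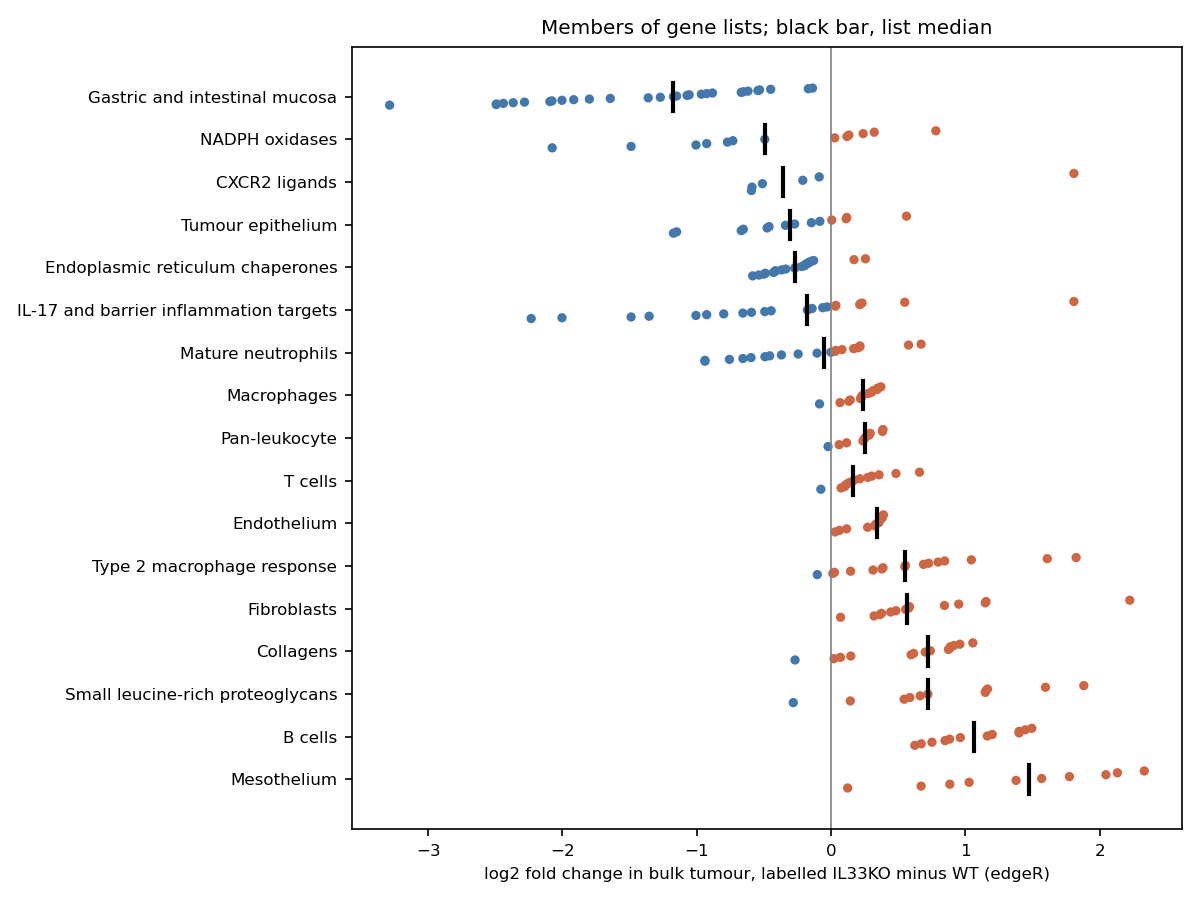
Log2 fold change in bulk tumour (horizontal axis, labelled IL33KO minus WT, edgeR) of the tested members of 17 lists (rows), each point 1 gene, with a black bar at the list's median. Mucosal genes were all negative (median −1.17) and mesothelial genes all positive (median +1.47), whereas mature neutrophil genes lay on both sides of 0.

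Ncam1 and Dpysl2 were higher in every library labelled IL33KO than in WT. Ncam1, a neural adhesion molecule, was at 34.6, 33.4, 34.9, 33.9 and 34.1 CPM in WT and at 52.5, 42.7, 45.4, 48.8 and 41.6 CPM in those labelled IL33KO. The WT libraries spanned only 33.4 to 34.9 CPM and all libraries labelled IL33KO were above them (log2 +0.44 (SE 0.08), DESeq2 adjusted p = 0.00199, range over the settings run 0.00199 to 0.988). Dpysl2, a cytoskeletal protein of growing axons, was at 31.7, 32.3, 36.3, 30.8 and 34.4 CPM in WT and at 42.3, 42.1, 40.9, 40.7 and 41.5 CPM in those labelled IL33KO. Its groups did not overlap either (log2 +0.33 (SE 0.07), DESeq2 adjusted p = 0.00199, range over the settings run 0.00199 to 0.988). The related Dpysl3 lay at 60.7 to 76.0 CPM in WT and 79.4 to 97.9 CPM in those labelled IL33KO (log2 +0.39) and the hedgehog co-receptor gene Cdon at 22.3 to 26.9 CPM in WT and 29.0 to 44.6 CPM in those labelled IL33KO (log2 +0.52), both without overlap.

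Among small leucine-rich proteoglycans, which bind and space collagen fibrils, DESeq2 called Ogn, Podn and Fmod higher. Ogn, osteoglycin, was at 0.860, 1.10, 0.866, 0.861 and 2.96 CPM in WT and at 4.35, 3.25, 3.38, 5.71 and 3.44 CPM in those labelled IL33KO. WT 5 came close to the libraries labelled IL33KO without reaching them (log2 +1.597 (SE 0.38), DESeq2 adjusted p = 0.0161, range over the settings run 0.00392 to 0.988). Podn, podocan, was at 0.998, 0.543, 0.850, 1.06 and 2.85 CPM in WT and at 5.91, 7.37, 2.52, 4.29 and 3.16 CPM in those labelled IL33KO, where WT 5 exceeded replicate 3 labelled IL33KO (log2 +1.88 (SE 0.46), DESeq2 adjusted p = 0.0161, range 0.00393 to 0.988). Fmod, fibromodulin, was at 5.19, 4.61, 3.68, 5.20 and 8.79 CPM in WT and at 6.92, 10.2, 16.2, 17.5 and 10.8 CPM in those labelled IL33KO (log2 +1.17 (SE 0.29)). Lumican, Lum, ranged over 15.1 to 38.9 CPM in WT and 14.9 to 101 CPM in those labelled IL33KO (log2 +1.15). In this list of 14, added after the values were seen, 11 were tested and 10 were positive (median +0.72, +1.12 without WT 3 and 5). Of them 5 were higher at an unadjusted p under 0.05 and DESeq2 called 3 higher. Over all genes tested these shares were 2.98% and 0.116%.

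Fibrillar collagens varied widely between tumours of both groups. Col1a1 was at 419, 275, 522, 545 and 876 CPM in WT and at 2059, 366, 1005, 1263 and 789 CPM in those labelled IL33KO. Replicate 2 labelled IL33KO lay in the WT range and WT 5 above 2 of the libraries labelled IL33KO, so the groups overlapped (log2 +1.06 (SE 0.42)). Col1a2 gave log2 +0.96 (SE 0.34). Of 14 collagen genes 13 were positive (median +0.72) with 8 at an unadjusted p under 0.05, and of 14 fibroblast genes 14 were positive (median +0.57) with 7; DESeq2 called 0 in both lists. Over all genes tested 2.98% were higher at that p. Dpt, dermatopontin, was at 1.37, 1.27, 2.13, 0.796 and 11.2 CPM in WT and at 7.93, 7.73, 5.04, 47.6 and 10.04 CPM in those labelled IL33KO. Replicate 4 labelled IL33KO was far above the rest and WT 5 above the other WT libraries (log2 +2.22 (SE 0.86)). The collagen cross-linking gene Loxl2 was higher without overlap (64.0 to 84.3 CPM in WT and 88.5 to 108 CPM in those labelled IL33KO, log2 +0.37), as was Tgfb2, a TGF-beta ligand (3.09 to 5.25 CPM in WT and 5.59 to 9.40 CPM in those labelled IL33KO, log2 +0.72). The TGF-beta list as a whole had a median of +0.02 with 7 of 12 positive, and −0.07 without WT 3 and 5.

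Other genes of small p on this side encode secreted or matrix-bound proteins. Col28a1, a minor collagen, lay at 1.46 to 1.90 CPM in WT and 2.44 to 4.55 CPM in those labelled IL33KO (log2 +0.97), Itih5, which binds hyaluronan, at 3.96 to 8.27 CPM in WT and 8.14 to 15.7 CPM in those labelled IL33KO (+1.05), and Figf, the lymphatic growth factor VEGF-D, at 1.54 to 3.20 CPM in WT and 2.88 to 4.64 CPM in those labelled IL33KO (+0.97). The heparan sulfatase gene Sulf1 was at 25.7 to 34.4 CPM in WT and 36.5 to 49.4 CPM in those labelled IL33KO (log2 +0.50), the protease gene Prss23 at 11.1 to 12.7 CPM in WT and 14.2 to 19.9 CPM in those labelled IL33KO (+0.53) and the xylosyltransferase gene Gxylt2 at 2.40 to 3.83 CPM in WT and 4.07 to 6.43 CPM in those labelled IL33KO (+0.79). Of the 15 genes of smallest p on the higher side, 12 did not overlap between groups, DESeq2 called 14 (not Sulf1) and voom called 15. Over all genes tested 0.33% were higher with no overlap, DESeq2 called 0.116% higher and voom 11.1%. These 15 too were picked for small p in the same libraries, so the counts are a description.

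Genes of mesothelium, the cell sheet that covers the pancreas and the abdominal wall, were high in some libraries labelled IL33KO. Upk3b, a uroplakin marking mesothelium, was at 4.45, 3.68, 12, 5.41 and 5.69 CPM in WT and at 17.9, 37.0, 11.6, 55.3 and 7.31 CPM in those labelled IL33KO. Replicates 1, 2 and 4 labelled IL33KO were above every WT library, and replicates 3 and 5 lay within the WT range (log2 +2.05 (SE 0.54), DESeq2 adjusted p = 0.021, range over the settings run 0.0103 to 0.988). Muc16, the mucin of serous surfaces that binds mesothelin, was low, at 0.169, 0.305, 0.410, 0.130 and 0.183 CPM in WT and at 0.923, 1.81, 0.442, 2.39 and 0.484 CPM in those labelled IL33KO, without overlap (log2 +2.33 (SE 0.54)). The WNT amplifier gene Rspo1 was at 0.584, 0.509, 1.66, 0.601 and 1.46 CPM in WT and at 2.93, 6.74, 2.48, 6.32 and 2.13 CPM in those labelled IL33KO, also without overlap, and was highest in the same replicates 2 and 4 (log2 +2.09 (SE 0.47), DESeq2 adjusted p = 0.00692, range over the settings run 0.00393 to 0.988). Gpm6a (+2.13), Upk1b (+1.78) and Bnc1 (+1.57) were positive too, whereas Msln, mesothelin, which pancreatic carcinoma cells make too, was at 397 to 495 CPM in WT and 420.0 to 597 CPM in those labelled IL33KO (log2 +0.12). All 10 tested members were positive (median +1.47, 5 at an unadjusted p under 0.05, 3 called by DESeq2; median +2.22 without WT 3 and 5), with scores of 1.90 to 3.27 in WT and 2.48 to 4.69 in those labelled IL33KO. Over all genes tested 2.98% were higher at that p and DESeq2 called 0.116% higher. WT 3, with the highest mesothelial score of WT (3.27), was also the library of highest Il1rl1 and Saa3. Replicates 1, 2 and 4 labelled IL33KO had higher mesothelial scores (3.77, 4.01 and 4.69) and less of both genes than WT 3. A link between them was not tested.

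**Figure D4:**
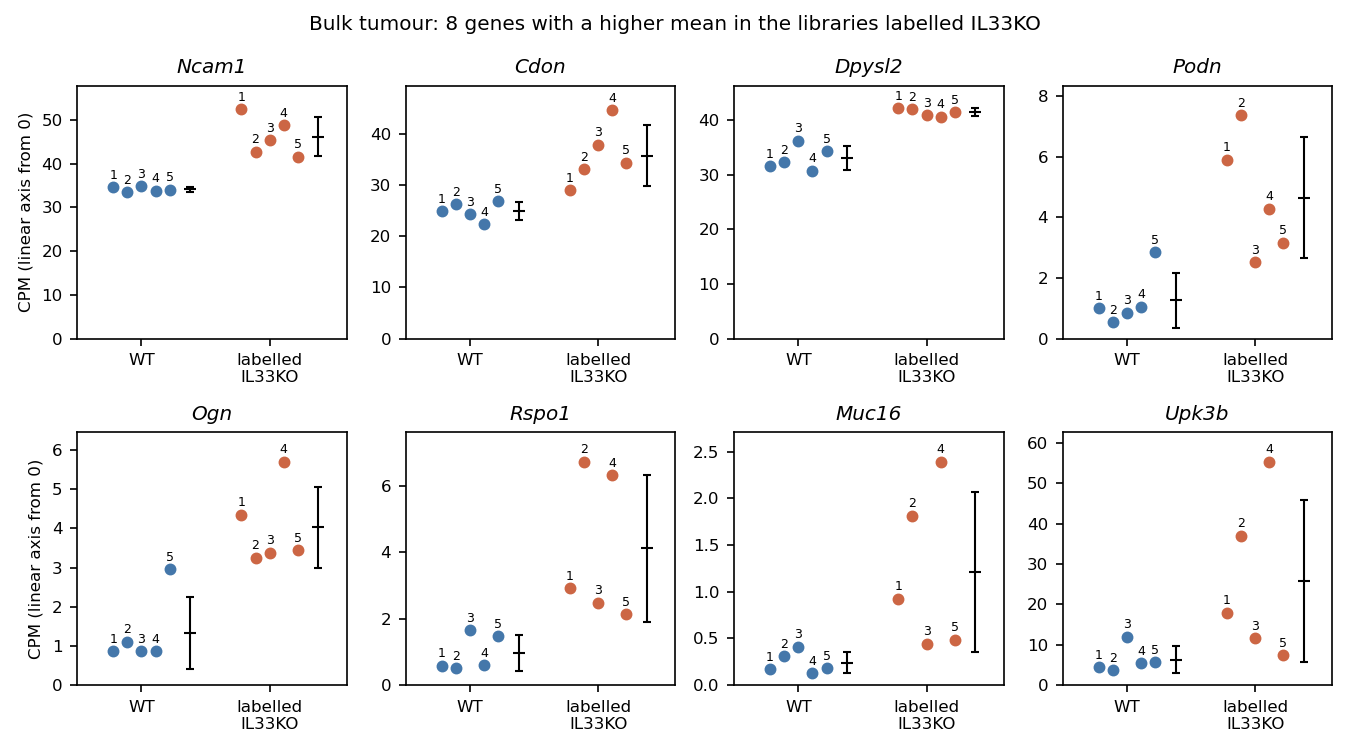
CPM (vertical axis, linear from 0) of 8 genes in each bulk tumour library, with replicate numbers beside the points and the mean with its SD as a bar at the right of each group (n = 5). Ncam1, Cdon, Dpysl2, Ogn, Rspo1 and Muc16 did not overlap between the groups, and Muc16 and Upk3b were highest in replicates 2 and 4 labelled IL33KO.

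Among leukocyte genes, Ccl5, a chemokine for T cells, was at 18.4, 16.2, 48.4, 22.2 and 85.3 CPM in WT and at 35.1, 39.5, 26.3, 52.97 and 78.9 CPM in those labelled IL33KO. WT 1, 2 and 4 were the lowest of all, WT 5 was the highest, and the libraries labelled IL33KO lay between them (log2 +0.29 (SE 0.47)). Ptprc (CD45) gave log2 +0.06, Cd8a +0.04, Gzmb +0.04, Ifng +0.23 and Foxp3 +0.16. For the dendritic cell genes Batf3, Itgae and Xcr1 the values were +0.56, +0.01 and −0.02, for the checkpoint genes Pdcd1 and Cd274 +0.16 and +0.15, and for the type 2 genes Gata3, Areg and Il13 +0.50, +0.02 and +1.13. Their edgeR unadjusted p values were all 0.0958 or more. The signs of Itgae, Xcr1, Cd8a and Areg turned with several settings, and without WT 3 and 5 edgeR called Ccl5, Batf3, Gzmb, Ifng and Gata3 higher. WT 3 and 5 were left out for their high pan-leukocyte scores, so those calls are no separate support.

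The 12 B cell genes were all positive (median +1.06), with 1 at an unadjusted p under 0.05; the median was +4.09 without WT 3 and 5 and +0.16 when the pan-leukocyte score was a covariate. Macrophage genes were positive in 13 of 14 (median +0.24, +0.67 without WT 3 and 5), T cell genes in 13 of 14 (+0.17, +0.93) and type 2 macrophage genes in 15 of 16 (+0.55, +1.505), and edgeR and DESeq2 called 0 in each. Voom called 9 of the 12 B cell genes higher, 12 of 14 macrophage genes, 7 of 14 T cell genes and 12 of 16 type 2 macrophage genes, against 11.1% of all genes tested. Its weights were 0.664 and 0.218 for WT 3 and 5, and 6.09, 0.594 and 2.56 for WT 1, 2 and 4. The WT side of voom thus rested mostly on WT 1 and 4, poor in leukocyte genes, so its calls are no separate support. Leaving out WT 3 and 5, the WT libraries rich in leukocyte genes, favoured higher leukocyte medians by the choice itself. Without replicate 5 labelled IL33KO the B and T cell medians were −0.08 and −0.05. Among the type 2 macrophage genes Retnla, a resistin-like protein induced by IL-4 and IL-13, was at 1.12, 1.44, 9.49, 1.53 and 11.0 CPM in WT and at 11.9, 23.7, 17.1, 12.8 and 21.7 CPM in those labelled IL33KO. The groups did not overlap, though WT 3 and 5 came near (log2 +1.82 (SE 0.65), voom adjusted p = 0.00392, range over the settings run 0.00392 to 0.988). Cxcl13, the B cell chemokine, was at 1.12, 1.14, 5.76, 1.27 and 6.17 CPM in WT and at 4.93, 18.1, 0.673, 3.94 and 15.5 CPM in those labelled IL33KO, with overlap (log2 +1.48), and the monocyte gene Ly6c2 had log2 +1.11. Of the 10 genes in the eosinophil list 8 were positive and 2 negative (median +0.68, +2.07 without WT 3 and 5). At an unadjusted p under 0.05, 2 were higher and 1 lower, against 2.98% and 3.38% of all genes tested. The surface lectin gene Siglecf, the lowest of the list, was at 10.4, 9.43, 6.91, 9.50 and 5.36 CPM in WT and at 7.27, 5.46, 5.05, 4.24 and 5.33 CPM in those labelled IL33KO (log2 −0.61). The ribonuclease gene Ear1, the highest, had log2 +1.96, and reads of Ear genes may be split between near-identical copies.

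The sorted leukocyte libraries gave values of these genes in other libraries of the same study. Of the 15 lower genes 14 had a value there, and 11 of the 14 were negative too; of the 15 higher genes 14 had a value and 11 were positive. Over all 16029 genes tested in bulk with a sorted value, 40.5% had the same sign. Cxcr2 had a log2 difference of −0.33 in sorted leukocytes, Csf3r one of −0.39, Cxcl5 −0.15 and Duoxa2 −0.35, all smaller in size than in bulk. By edgeR their adjusted p in sorted leukocytes were 0.509, 0.486, 0.848 and 0.691, so none was called there. The labels do not say whether sorted and bulk libraries come from the same tumours.

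**Figure D5:**
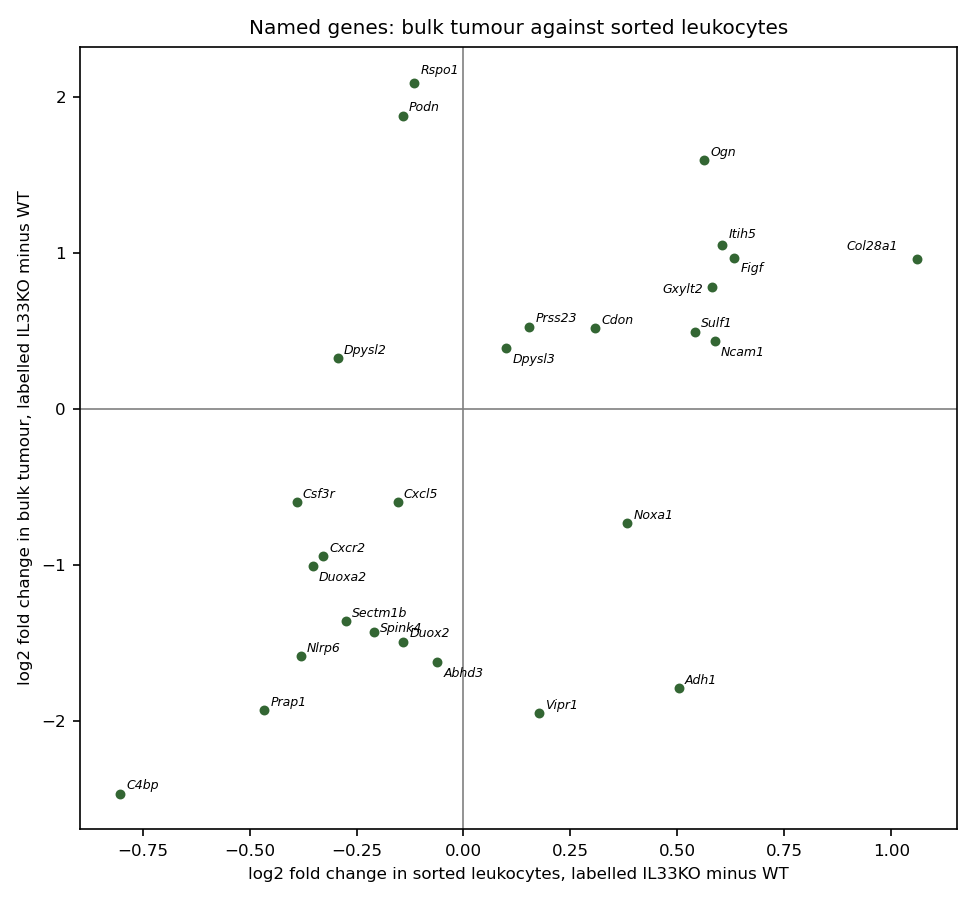
Log2 fold change (labelled IL33KO minus WT) in sorted leukocytes (horizontal axis) and in bulk tumour (vertical axis) for 27 of the 30 genes of smallest p in bulk. Cxcr2, Csf3r, Cxcl5 and Duoxa2 lay lower left, whereas Dpysl2, Podn and Rspo1 were positive in bulk and negative in sorted leukocytes.

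Whether the host genotype acted differently in bulk tumour and in sorted leukocytes was tested with an interaction term over all 20 libraries. Of 18145 genes 0 were called (0%), with 2028 at an unadjusted p under 0.05 and a smallest adjusted p of 0.0526; DESeq2 called 4 and voom 3406. Leaving out predicted genes, the 5 of smallest p had an adjusted p of 0.445 each. For Dpysl2 the difference of log2 fold changes, bulk minus sorted, was +0.64 (SE 0.14), from +0.33 in bulk and −0.29 in sorted leukocytes. Mid1, an X-linked ubiquitin ligase gene, was at 13.4, 12.5, 8.50, 14.6 and 5.80 CPM in WT and at 12.3, 12.9, 7.55, 13.2 and 8.18 CPM in those labelled IL33KO, with a log2 difference of −0.02 in bulk and +1.70 in sorted leukocytes (interaction −1.68, SE 0.37). Cndp2, a cytosolic dipeptidase gene, was at 57.7, 56.8, 85.7, 56.5 and 126 CPM in WT and at 52.96, 45.9, 51.2, 50.5 and 58.0 CPM in those labelled IL33KO. Its WT values were raised in WT 3 and 5, and its difference was −0.57 in bulk and −1.75 in sorted leukocytes (interaction +1.21, SE 0.28). Plxdc2 (interaction +0.71, SE 0.16) and the ribosome assembly factor gene Mdn1 (−0.86, SE 0.20) made up the rest, with bulk differences of +0.15 and −0.48. Without bulk WT 5 edgeR called 27 genes in this test, Mid1, Cndp2 and Mdn1 among them.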

How the data were processed

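Poly(A) RNA of bulk tumours was sequenced with a stranded kit, per the labels' protocols. Raw read counts per gene were deposited by the authors, who used Picard, HTSeq and DESeq with build mm10, per the submitters' processing notes; neither aligner nor strand setting is given in the sources used here. A deposited signal table (counts divided by DESeq size factors, 22924 genes) served only for the authors' size factors. The 5 HTSeq summary lines were left out of library sizes. Gene coordinates are those of GENCODE M21 (GRCm38, mm10), found for 17204 of 17258 genes tested.

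Counts of the 10 bulk libraries were filtered (filterByExpr), scaled by TMM and tested with edgeR 4.0.16 (robust quasi-likelihood, Benjamini-Hochberg adjustment, threshold 0.05) in R 4.3.3; DESeq2 1.42.0 and limma 3.58.1 (voom with sample quality weights) were alternatives, and the fits were tested on simulated data. The interaction used all 20 libraries. Other alternatives were size factors, no filter, a replicate block, the pan-leukocyte score as covariate, and libraries left out. CPM values use TMM sizes, and list scores a prior count of 2. Counts give 51.3 to 81.0 M per library.

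Members and the 54 gene lists were chosen with earlier results of these data known, and 4 more lists after the values were seen. Named were Il33, Il1rl1, genes fixed for the study's question, the 15 smallest p in each direction and the 5 smallest of the interaction at a mean of 1 CPM or more, and members of the described lists; predicted genes were left out. Reg3g and other members of the 4 added lists fall outside this rule. Some genes that this rule selects are not reported here, though they stay in the counts.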

Additional observations from a re-analysis of the deposited data

Results flagged for a closer look

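Dixon's criterion was applied to log2 of CPM plus 1 in 234 groups of 5 libraries. In 22 a library was set apart from the other 4, where chance gives about 1 in 20.

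WT 5 was set apart in 12 of them. It was the lowest WT library for Spink4 (42.3 CPM, the next being 90.3), Tff2 (263 CPM), Clca1 (109 CPM), Hyou1 (216 CPM), Herpud1 (121 CPM) and Xcr1 (1.36 CPM). It was the highest for Ly6g (2.26 CPM), Cxcl3 (35.9 CPM), Ogn (2.96 CPM), Dpt (11.2 CPM), Cpa1 (990 CPM) and Ckm (140 CPM). For Spink4, Hyou1, Ly6g, Dpt and Ckm WT 5 lay within the range of the libraries labelled IL33KO. It lay outside that range for Cxcl3, Ogn and Cpa1.

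WT 2 was the highest for Il33 (80.2 CPM, the next being 67.3) and Duox1 (0.339 CPM). WT 3 was the highest for Bnc1 (2.54 CPM) and the lowest for Reg3g (23.8 CPM).

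Among the libraries labelled IL33KO, replicate 4 was the highest for Cxcl1 (10.6 CPM, the next being 1.80), Duox2 (66.0 CPM) and Dpt (47.6 CPM). Replicate 3 was the lowest for Traf6 (28.3 CPM), Cybb (77.6 CPM) and Figf (2.88 CPM).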

How the results depend on the processing

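With edgeR's quasi-likelihood test the count of 0 called genes in bulk tumour stayed at 0 with RLE or the authors' size factors, no filter on low counts, no robust estimation, all 20 libraries, or WT 5 and replicates 1, 3 and 5 labelled IL33KO left out (an alternative chosen after seeing the data). It was 50 with DESeq2, 3371 with voom, 1 when the pan-leukocyte score was a covariate and 2174 without WT 3 and 5; the cause was not tested. Leaving out 1 library at a time gave 0 to 19 calls, above 0 only without WT 5. The interaction, with 0 calls, gave 4 with DESeq2, 3406 with voom and 1 with RLE size factors, and 0 to 27 without 1 library, 27 without bulk WT 5. The difference in log2 CPM of Il33 ranged from −0.44 to −0.26 without 1 library, with an adjusted exact permutation p of 0.0476 without replicate 3 labelled IL33KO. That replicate alone lay within the WT range, so leaving it out separated the groups.

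The signs of some log2 differences turned, and the cause was not tested. They turned with voom for Il1rl1 +1.52, Il1rap +0.079, S100a8 −0.25, S100a9 −0.28, Ly6g −0.077, Cxcl2 +0.39, Krt18 −0.088 and Cpa1 +0.10; without WT 3 and 5 for Il1rl1 +1.78, Il1rap +0.13, Cxcl2 +0.50, Ppbp +0.16, Lcn2 +0.31, Krt18 −0.059 and Cpa1 +5.46; with the covariate for S100a8 −0.54, S100a9 −0.72, Ly6g −0.59, Wfdc21 −0.36, Ccl5 −0.011, Itgae −0.19, Xcr1 +0.16, Cd8a −0.33, Ifng −0.050, Pdcd1 −0.088, Cd274 −0.045, Ptprc −0.17, Cpa1 +2.62 and Mid1 +0.28. Without WT 5 and replicates 1, 3 and 5 labelled IL33KO they turned for S100a8 −0.42, S100a9 −0.51, Ly6g −0.37, Cxcl2 +0.47, Krt18 −0.12, Xcr1 +0.23, Areg −0.17, Ins2 −3.05 and Mid1 +0.063; with no filter for Krt18 −0.023, Itgae −0.016 and Areg −0.0090; with all 20 libraries for Xcr1 +0.012 and Mid1 +0.0011; and with DESeq2 and RLE size factors for Krt18 −8.1e-05 and Krt18 −7.9e-05. Over the fits without 1 library the ranges that crossed 0 were S100a9 −0.84 to +0.23, Saa3 −0.043 to +1.40, Itgae −0.24 to +0.24, Xcr1 −0.41 to +0.24, Cd8a −0.18 to +0.28, Gzmb −0.41 to +1.41, Foxp3 −0.027 to +0.58, Areg −0.092 to +0.12, Ins2 −4.97 to +1.63, Mid1 −0.18 to +0.11, Krt18 −0.057 to +0.063, Il1rl1 −0.59 to +1.04, Ptprc −0.12 to +0.21, Il1rap −0.15 to +0.20, Cxcl2 −0.44 to +0.29, Ppbp −0.36 to +0.31, Lcn2 −0.64 to +0.18, Cpa1 −5.16 to +5.36, Ckm −0.95 to +10.17, S100a8 −0.70 to +0.41, Retnlg −0.057 to +0.88, Ly6g −0.85 to +0.82, Wfdc21 −0.40 to +0.98, Krt8 −0.18 to +0.030, Ifng −0.054 to +0.73. The share of reads aligned at several places, labelled IL33KO minus WT, ranged from −0.0089 to +1.299 percentage points and that of unaligned reads from −1.24 to +0.45.

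The labels do not say that replicate numbers pair the mice. Deviations of same-numbered bulk libraries correlated at 0.218, 0.312, −0.132, 0.245 and 0.611. For WT 2 and 5 the same number gave the highest correlation, and for WT 1, 3 and 4 another number did. These values do not settle whether any libraries were paired. With the numbers as a replicate block 0 genes were called in bulk tumour (2681 at an unadjusted p under 0.05) and 0 in the interaction, and signs turned for Il1rl1 +0.72, S100a8 −0.28, S100a9 −0.40, Ly6g −0.13, Krt18 −0.0048, Itgae −0.14, Cd8a −0.0077, Areg −0.0092 and Mid1 +0.019. Depth limits genes near 0.0374 to 0.0577 CPM, the level of 3 counts.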

Other observations

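Vessel genes were positive throughout their lists: 12 of 12 endothelial genes (median log2 difference +0.34), 7 of 7 lymphatic endothelial genes (+0.79) and 7 of 7 pericyte genes (+0.21), against +0.01 over all genes tested. At an unadjusted p under 0.05 in edgeR there were 0 in each of the 3 lists. Voom called 3 of 12, 7 of 7 and 1 of 7 of them higher, against 11.1% of all genes tested. WT 5, the highest WT library by score in each of the 3 lists, had a voom weight of only 0.218. Without WT 3 and 5 the medians were +0.61, +1.47 and +0.37, and the pericyte median was −0.01 without replicate 1 labelled IL33KO.

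Cell cycle genes were positive in 14 of 15 (median +0.18), with 0 at an unadjusted p under 0.05; the median was +0.30 without WT 3 and 5. Among glycolysis and hypoxia genes 11 of 16 were negative (median −0.05, +0.04 without WT 3 and 5), and oxidative phosphorylation genes were divided 8 to 7 (median 0.00).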
